A study of Mus musculus with 2 samples.

Results

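Granins are acidic secretory proteins that are packed with peptide hormones and amines into the dense-core granules of endocrine cells and neurons. Their transcripts were followed here in single cells of control mouse islets. The members are Chga (chromogranin A), Chgb (chromogranin B), Scg2 (secretogranin II), Scg3 (secretogranin III) and Vgf, chosen by their symbols, and they are 5 of the 33038 genes listed in either library. All 5 had a row in both count tables. They were described over the groups of cells in which insulin (Ins1 and Ins2 added), Gcg (glucagon), Sst (somatostatin) or Ppy (pancreatic polypeptide) reached 1% of the cell's transcripts.

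Granins gather in the trans-Golgi network, where low pH and calcium make them aggregate, and they are thought to help the granule form and to hold its cargo. Several are also precursors, cut by the same convertases as the hormones into peptides such as pancreastatin from chromogranin A, secretoneurin from secretogranin II and TLQP-21 from VGF. They are commonly used as markers of neuroendocrine cells, and islet endocrine cells of every hormone type carry them.

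The study used RevGel-seq, in which a cell and a barcoded bead are linked, held in a gel that can be liquefied again, and lysed there so that the bead captures the cell's polyadenylated RNA. The only group was control islets of C57BL/6J mice aged 8 weeks, male according to the methods, collected by hand after collagenase treatment and dissociated with trypsin. Both libraries were made from 1 preparation of islets with 10000 cells put into each, as technical replicates, so the spread between them and every p-value below leave out differences between animals. They held 735 and 748 cell barcodes with 15931154 and 17440292 deduplicated transcripts (unique molecular identifiers, UMIs), and shared 0 barcodes.

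A cell was called insulin-only, Gcg-only, Sst-only or Ppy-only if a single hormone passed 1% of its UMIs. In library 1 and library 2 there were 182 and 190 insulin-only, 182 and 174 Gcg-only, 35 and 23 Sst-only, and 54 and 68 Ppy-only cells. Cells with Gcg and Ppy numbered 65 and 86, those with Sst and Ppy 77 and 71, those with insulin and any other hormone 37 and 27, and those with no hormone at 1% 91 and 92. The remaining 29 cells, with Gcg and Sst together and 15 of them also with Ppy, entered no test. Other defining genes followed the hormones: Mafa, a beta cell factor, stood at 1162 and 1216 CPM in insulin-only cells and at 0 to 3.54 CPM in the other single-hormone groups. Irx2 of alpha cells was at 286 and 301 CPM in Gcg-only cells, and Hhex of delta cells at 316 and 479 CPM in Sst-only cells. For the Ppy-only group the support was thinner, since Aqp3 was at 0 in all 4 single-hormone groups but Gcg-only library 1 (0.381 CPM) and Etv1 (762 and 730 CPM) was also at 469 to 590 CPM in Gcg-only and Sst-only cells. Acinar enzyme transcripts, from 5 genes, summed to 312 and 154 CPM in Sst-only, 274 and 233 in Sst and Ppy, and 6.64 to 20.6 CPM in the other single-hormone cells. Cela1 alone made up 310 and 151 CPM of this in Sst-only and 267 and 221 CPM in Sst and Ppy cells, and the other 4 (Cpa1, Prss2, Pnlip and Ctrb1) were at 0 to 5.49 CPM in each of the 8 groups. Endothelial markers summed to 580 and 50.3 CPM in Sst-only cells. The part of either in the granin levels of Sst cells was not tested. CPM stands throughout for UMIs of a gene per 1000000 UMIs outside the 5 hormone genes, summed over the cells of a group in a library, because the hormones took from 9.56% of UMIs in Sst-only cells of library 1 to 41.4% in insulin-only cells of library 2.

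The genes lie on separate chromosomes of GRCm38 in GENCODE M21: Chga on the forward strand of chromosome 12 (102554969 to 102565028, 8 exons in its longest transcript), Chgb on the forward strand of chromosome 2 (132781278 to 132795079, 5 exons), Scg2 on the reverse strand of chromosome 1 (79434669 to 79440120, 2 exons), Scg3 on the reverse strand of chromosome 9 (75643189 to 75684056, 12 exons) and Vgf on the forward strand of chromosome 5 (137026392 to 137033351, 5 exons). Only Scg3 overlapped another annotated gene, Gm37871 on the opposite strand. Promoter sequences, reaching from 250 bases before to 50 after the start site, were found for 4 of the 5 members in the RefSeq table for GRCm38.p6. They are shown for the cyclic AMP response element TGACGTCA, known as a control element of several granin genes. It was found in the promoters of Chgb and Scg2, and its part in their levels was not tested. Each run is a stretch around the motif, read 5′ to 3′ on the gene's strand, with the matched letters in capitals.
Chga, chr12:102554867-102554931: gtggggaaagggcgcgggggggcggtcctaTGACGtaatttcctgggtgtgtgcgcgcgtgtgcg
Chgb, chr2:132781540-132781607: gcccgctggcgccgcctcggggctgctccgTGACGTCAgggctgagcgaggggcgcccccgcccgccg
Scg2, chr1:79440057-79440124: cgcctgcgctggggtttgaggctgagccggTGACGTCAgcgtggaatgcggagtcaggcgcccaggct
Scg3, chr9:75684052-75684116: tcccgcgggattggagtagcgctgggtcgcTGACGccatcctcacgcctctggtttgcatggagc
The motif TGACGTCA, the same on both strands, began 72 bases before the start site of Chgb and 68 before that of Scg2. Among all 32544 promoters of this length in the table, 586 (1.80%) held it. In Chga and Scg3 only the shorter TGACG was matched, 44 and 30 bases before the start, and 20.9% of promoters held that motif on either strand, all those with the longer motif among them. Distances are from RefSeq starts. The GENCODE genes of Chgb and Scg2 begin further upstream, and these 2 stretches lie inside or at the edge of them. That of Chga begins downstream of the RefSeq start, so its stretch lies further from the GENCODE start. These are matches of letters, not measured binding sites.

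Together, the granins took the largest share of UMIs among the single-hormone groups in insulin-only cells, and Chga made up most of it. The 5 genes accounted for 4.95% ± 0.120 (SD, n = 2 libraries, as in all values given with ±) of UMIs outside the hormones in insulin-only cells, 2.71% ± 0.163 in Sst-only, 2.00% ± 0.0849 in Gcg-only and 1.74% ± 0.375 in Ppy-only cells, against 0.322% ± 0.0856 in cells with no hormone. The gap between insulin-only cells and each of the others was many times these SDs, while Gcg-only and Ppy-only cells were within them of each other. These are sums over cells. The median cell had 1.36% and 1.31% in the Ppy-only group and 1.97% and 1.92% in the Gcg-only group. An exact test of 2 against 2 libraries cannot pass 0.05, so shares and levels are set against their SD.

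The makeup differed as much as the total. Chga supplied 63.8% ± 1.77 of granin UMIs in insulin-only cells and 70.2% ± 1.13 in Gcg-only cells, but 21.1% ± 1.48 in Sst-only cells. There, Chgb led with 40.1% ± 1.27 and Scg2 followed with 31.6% ± 0.354. Scg2 gave 8.43% ± 0.212 in Gcg-only cells, the lowest of the single-hormone groups, and 17.6% ± 0.354 in insulin-only cells. Scg3 stayed between 7.20% and 9.82% in all of them. Vgf was at most 0.124% in any group. A UMI is counted at the 3′ end, 1 per captured transcript, so these shares compare numbers of transcripts and are not scaled by length.

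**Figure D1:**
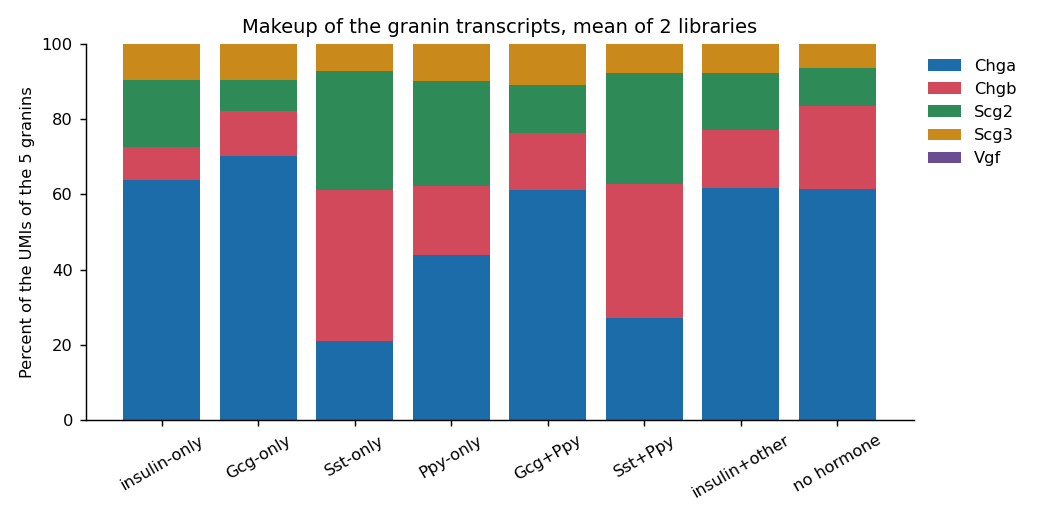
Stacked bars give the percent of the summed UMIs of the 5 granins that each gene supplied in a hormone group, as the mean of 2 libraries (vertical axis, 0 to 100 percent). Chga fills more than 60% of the bar in insulin-only and Gcg-only cells and 21.1% in Sst-only cells, where Chgb (40.1%) and Scg2 (31.6%) fill most of it.

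**Figure D2:**
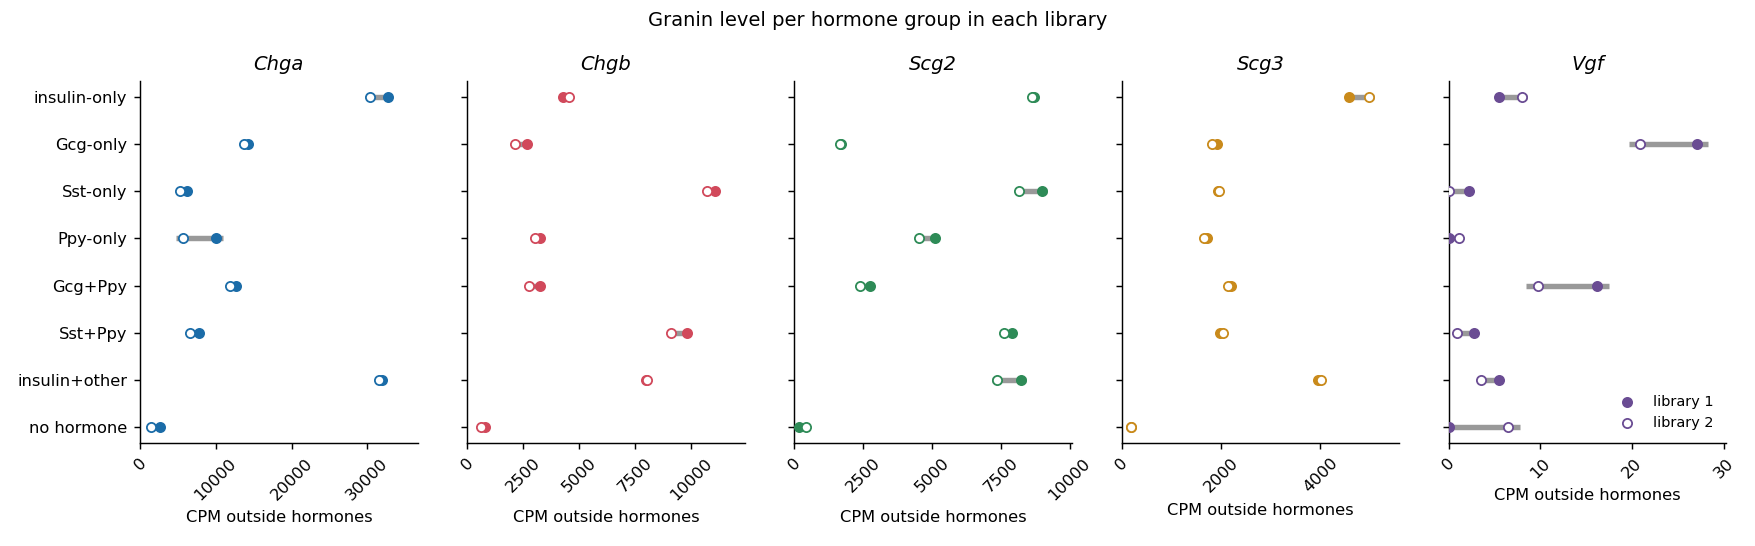
Each panel shows 1 granin, with CPM outside the hormones on a linear horizontal axis from 0 and the 8 hormone groups as rows. Filled points are library 1, open points library 2, and grey bars span the mean ± 1 SD of both. The libraries sit close together in most rows, while Chga in Ppy-only cells (10007 and 5662 CPM) and Vgf in most rows are spread.

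Chga, the source of pancreastatin and the most abundant granin of the islet, was highest in cells with insulin. In insulin-only cells it stood at 32708 CPM in library 1 and 30408 in library 2, in Gcg-only cells at 14293 and 13777, in Ppy-only cells at 10007 and 5662, and in Sst-only cells at 6241 and 5213. The insulin-only and Gcg-only values did not overlap with any other single-hormone group, and those of the Sst-only and Ppy-only groups did. All insulin-only cells had a Chga UMI, and the middle 80% of cells lay within 2.84-fold of each other in library 1 and 3.11-fold in library 2. Chga was 2.31-fold higher in insulin-only than in Gcg-only cells (log2 1.21, SE 0.14), 6.04-fold higher than in Sst-only cells (log2 2.59, SE 0.15) and 4.18-fold higher than in Ppy-only cells (log2 2.06, SE 0.14). These come from sums of UMIs per library and group in edgeR's quasi-likelihood test, with adjusted p = 3.14e-08, 1.71e-14 and 9.18e-13 over the 12849 genes tested.

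Chga was also 2.62-fold higher in Gcg-only than in Sst-only cells (log2 1.39, SE 0.14, adjusted p = 9.26e-09, edgeR) and 1.81-fold higher than in Ppy-only cells (log2 0.86, SE 0.14, adjusted p = 3.36e-05, edgeR). The Ppy-only value rested on few cells. The median Ppy-only cell had 4334 CPM in library 1 and 3974 in library 2, well under the sums, and the 3 cells with most Chga held 52.6% and 30.6% of its UMIs. Without 4 cells picked for their high Chga, described further below, the sums were 5015 and 4664 CPM, below both Sst-only values. Lower sums followed from that choice. Chga was called higher in Ppy-only than in Sst-only cells (log2 of Sst-only over Ppy-only -0.53, SE 0.14, adjusted p = 0.00954, edgeR). The call was lost with DESeq2 (log2 -0.50, adjusted p = 0.187). The difference was -0.21 without library 1 and 0.03 on all UMIs.

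Chgb, a granin that binds calcium and is thought to act in granule formation, followed the reverse order in the groups with insulin and Sst. It was highest in Sst-only cells, at 11064 and 10684 CPM, followed by insulin-only cells at 4269 and 4557, Ppy-only cells at 3227 and 3009, and Gcg-only cells at 2659 and 2113. No 2 of these groups overlapped. Sst-only cells were 2.24-fold above insulin-only cells (log2 of insulin-only over Sst-only -1.17, SE 0.10, adjusted p = 9.47e-11, edgeR), 4.26-fold above Gcg-only cells (adjusted p = 2.47e-16) and 3.30-fold above Ppy-only cells (adjusted p = 5.23e-14). Insulin-only cells in turn exceeded Gcg-only cells 1.90-fold (log2 0.93, SE 0.10, adjusted p = 3.89e-09, edgeR) and Ppy-only cells 1.47-fold (log2 0.56, SE 0.10, adjusted p = 3.77e-05).

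The last neighbours in that order, Ppy-only and Gcg-only, were the hardest to separate. Chgb was 1.29-fold higher in Ppy-only cells (log2 of Gcg-only over Ppy-only -0.37, SE 0.10, adjusted p = 0.00687, edgeR), but this call was lost without library 2 (log2 -0.27, adjusted p = 0.229) and with all UMIs as the scale (log2 -0.17, adjusted p = 0.240). A single Gcg-only cell of library 1, chosen after its values were seen, had 1207 Chgb UMIs (29695 CPM) and held 17.3% of that sum. With it left out, Gcg-only cells stood at 2234 and 2113 CPM. Cells with Gcg and Ppy held 1 cell of this kind in each library, at 41535 and 33618 CPM, and stood at 3234 and 2778 CPM with them and 2325 and 2275 CPM without them.

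Scg2, the precursor of secretoneurin, separated Gcg cells from all others. It was at 8706 and 8646 CPM in insulin-only cells, at 9005 and 8176 in Sst-only cells, at 5121 and 4522 in Ppy-only cells and at 1706 and 1665 in Gcg-only cells. The insulin-only and Sst-only ranges overlapped, and Gcg-only cells lay below every other single-hormone group. Insulin-only cells exceeded them 5.29-fold (log2 2.40, SE 0.09, adjusted p = 2.74e-19, edgeR), Sst-only cells 4.77-fold (adjusted p = 9.87e-18) and Ppy-only cells 2.83-fold (adjusted p = 1.13e-13). Ppy-only cells lay in between, 1.87-fold below insulin-only cells (adjusted p = 1.76e-09, edgeR) and 1.69-fold below Sst-only cells (adjusted p = 1.99e-07).

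Between insulin-only and Sst-only cells Scg2 differed by 0.15 on the log2 scale (SE 0.09, adjusted p = 0.272, edgeR), which does not show that they are equal. Its sign turned to -0.56 (adjusted p = 9.88e-06) with all UMIs as the scale, where the hormones of insulin-only cells are counted in the denominator. Single Gcg-only cells also varied more in Scg2 than those of the other single-hormone groups did. Their 90th over 10th percentile ratio was 5.39 in library 1 and 6.29 in library 2, against 2.43 and 2.25 in insulin-only cells. It was 4.78 and 4.11 in cells with Gcg and Ppy, and 5.32 and 3.10 in cells with insulin and another hormone. Depth contributes to such ratios at low levels, and its part was not tested.

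Scg3, a granin known to bind chromogranin A and cholesterol-rich granule membrane, was high in insulin-only cells and nearly level elsewhere. It stood at 4573 and 4984 CPM in insulin-only, 1911 and 1823 in Gcg-only, 1943 and 1958 in Sst-only, and 1716 and 1649 CPM in Ppy-only cells. Only the insulin-only values stood far from the rest. The difference was 2.63-fold against Gcg-only (log2 1.39, SE 0.08, adjusted p = 1.04e-14, edgeR), 2.69-fold against Sst-only (log2 1.43, SE 0.09, adjusted p = 6.20e-14) and 2.95-fold against Ppy-only cells (log2 1.56, SE 0.08, adjusted p = 1.46e-15).

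Among the other groups no Scg3 difference passed the test. Gcg-only over Sst-only was 0.03 on the log2 scale (SE 0.09, adjusted p = 0.849, edgeR), Gcg-only over Ppy-only 0.17 (SE 0.08, adjusted p = 0.182) and Sst-only over Ppy-only 0.13 (SE 0.09, adjusted p = 0.360). On all UMIs they were -0.33, 0.37 and 0.70, each past the threshold, so the level order of these groups depends on whether the hormones are counted.

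Vgf, a granin-like precursor best known from neurons, was rare and was seen most in Gcg cells. Its counts were 71 and 59 UMIs in Gcg-only cells, 15 and 19 in insulin-only cells, 1 and 0 in Sst-only cells, and 0 and 2 in Ppy-only cells. That made 27.0 and 20.9 CPM in Gcg-only cells, against 5.54 and 8.00 in insulin-only cells. Of Gcg-only cells, 21.4% in library 1 (95% exact binomial interval 15.7% to 28.1%) and 21.8% in library 2 (15.9% to 28.7%) had a Vgf UMI. The shares were 5.49% and 8.42% in insulin-only cells, whose median depth outside the hormones was 11753 and 10188 UMIs against 12693 and 14560. With every cell thinned to 2000 UMIs outside the hormones they were 4.95% and 4.60% in Gcg-only and 0.549% and 1.58% in insulin-only cells. In cells led by endothelial markers, which should lack Vgf, 0 of 27 and 1 of 33 (3.03%) had a UMI, at a median depth of 14700 and 16383 UMIs.

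Pooled over libraries, Vgf was 3.57 times as frequent among the UMIs of Gcg-only as of insulin-only cells (95% exact interval 2.43 to 5.37, for counting error only), and higher in both libraries. In edgeR the log2 difference of insulin-only over Gcg-only was -1.78 (SE 0.41, adjusted p = 0.00089), and it missed the threshold without library 1 (log2 -1.32, adjusted p = 0.216). Against Sst-only cells the pooled ratio was 18.0 (3.17 to 715) and against Ppy-only cells 34.2 (9.29 to 286), both from at most 2 UMIs in the second group. The adjusted p of these was 0.00124 and 2.42e-06 in edgeR, the former rising to 0.0556 without library 1. Insulin-only cells had 9.59 times the Vgf of Ppy-only cells (2.46 to 82.4, adjusted p = 0.00311, edgeR) and 5.04 times that of Sst-only cells (0.845 to 205, adjusted p = 0.148). Between Sst-only and Ppy-only cells, with 1 and 2 UMIs, Vgf was not resolved at this depth (adjusted p = 0.832).

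**Figure D3:**
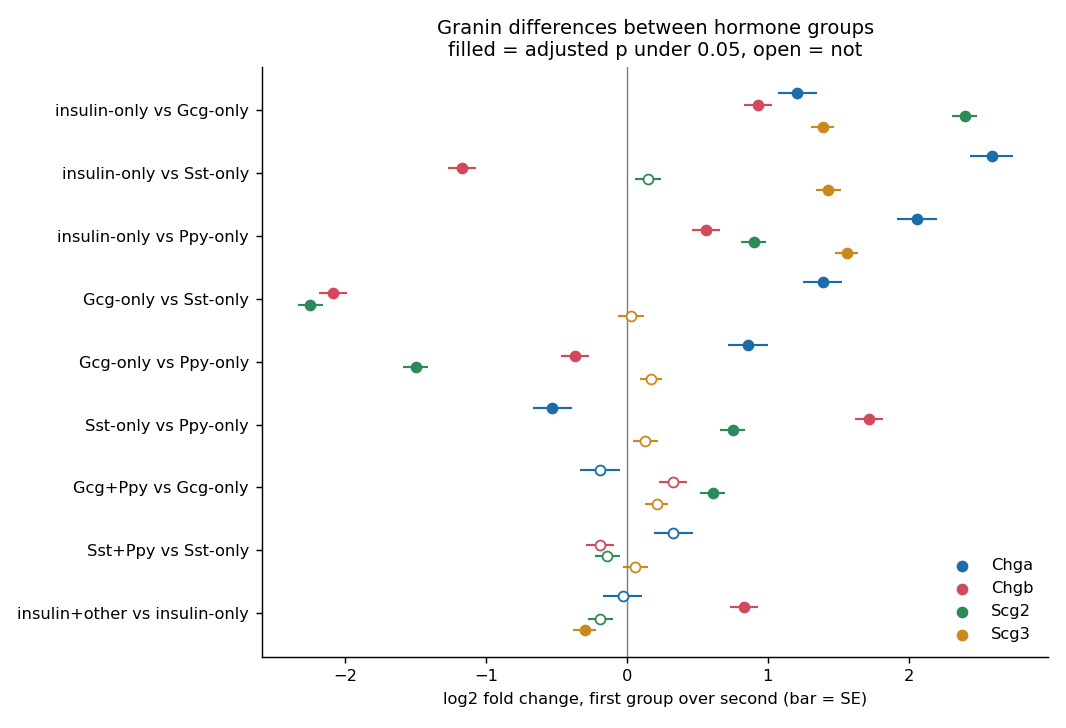
Points give the log2 fold change of Chga, Chgb, Scg2 and Scg3 (first group over second, horizontal axis) for 9 comparisons of hormone groups in edgeR, with bars of 1 SE. Filled points passed the adjusted p of 0.05 and open points did not, as for Scg3 near 0 among Gcg-only, Sst-only and Ppy-only cells. Vgf is left out because its counts in some groups were 0 to 2.

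A larger share of the 5 granins than of all genes was called where single-hormone groups were compared. The share over all genes was not matched for abundance. Chga, Chgb, Scg2 and Scg3 stood at 1649 CPM or more in each of these groups. Differences as large as that of a called granin were seen in 0.436% (Vgf) to 44% (Chgb) of genes, both for Gcg-only against Ppy-only cells. Between insulin-only and Gcg-only cells 5 of 5 granins passed, 4 higher in insulin-only cells and Vgf higher in Gcg-only cells, where 35.6% of all genes passed. For insulin-only against Sst-only cells it was 3 of 5 (20.9% of genes), for insulin-only against Ppy-only 5 of 5 (29.8%), for Gcg-only against Sst-only 4 of 5 (18.1%), for Gcg-only against Ppy-only 4 of 5 (17.2%) and for Sst-only against Ppy-only 3 of 5 (14.4%). With only 5 members chosen with earlier results known, these counts describe the granins and carry no test. Of all called genes, 47.0% to 53.2% were higher in the first group of these 6 comparisons.

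With all UMIs as the scale, each gene of a group rich in hormone is lowered, and the median over all genes moved to -0.37 (insulin-only over Gcg-only), -0.72 (insulin-only over Sst-only), -0.15 (insulin-only over Ppy-only), -0.35 (Gcg-only over Sst-only), 0.20 (Gcg-only over Ppy-only) and 0.56 (Sst-only over Ppy-only) on the log2 scale. The percent of called genes higher in the first group then became 21.9, 7.65, 35.8, 16.8, 74.2 and 92.5, in the same order. The granin differences that turned are Scg2 between insulin-only and Sst-only, Scg3 between Gcg-only and Sst-only, and Chga between Sst-only and Ppy-only cells. The other granin differences between single-hormone groups kept their sign, among them higher Chga and Scg3 in insulin-only cells and higher Chgb in Sst-only cells.

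Cells with Ppy beside Gcg or Sst were compared with those lacking it. Scg2 was at 2738 and 2396 CPM in cells with Gcg and Ppy, between the 1706 and 1665 of Gcg-only and the 5121 and 4522 of Ppy-only cells, and overlapped with neither. It was 1.52-fold higher than in Gcg-only cells (log2 0.61, SE 0.09, adjusted p = 4e-04, edgeR) and the only granin called there, when 47 of the 12849 genes (0.366%) passed. The call was lost without library 1 (log2 0.51, adjusted p = 0.191). Chga, at 12714 and 11826 CPM against 14293 and 13777 (log2 -0.19, SE 0.14, adjusted p = 0.790), did not pass, nor did Chgb (log2 0.33, adjusted p = 0.156), Scg3 (log2 0.21, adjusted p = 0.395) or Vgf (16.1 and 9.74 CPM, log2 -0.91, SE 0.42, adjusted p = 0.547). With no filter on low counts, Chga (log2 -0.23) and Chgb (log2 0.30) passed as well.

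Between cells with Sst and Ppy and Sst-only cells, 0 of 5 granins passed in edgeR, with 3 genes (0.0233%) called in all, 7 genes with the library as a block, and 967 genes at an unadjusted p under 0.05. Of the 3, 2 were higher with Ppy (1 of 2 on all UMIs). Chga was at 7737 and 6608 CPM against 6241 and 5213, with an unadjusted p of 0.027, and it was the only granin under 0.05 in this way. It was also the only one called without a filter on low counts (log2 0.39, adjusted p = 3.45e-06). Scg2 was at 7891 and 7608 CPM against 9005 and 8176 (log2 -0.14, SE 0.09, adjusted p = 0.767). The change in Scg2 that went with Ppy was larger among Gcg cells than among Sst cells by 0.75 on the log2 scale (SE 0.13, adjusted p = 0.00428, edgeR), a comparison added after the values were seen, in which 1 of 5 granins and 0.117% of genes passed (66.7% of these positive, 78.6% on all UMIs). This call was lost when either library was left out (log2 0.59 without library 1 and 0.86 without library 2).

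Cells with insulin and another hormone had more Chgb than insulin-only cells. Their 7991 and 8043 CPM against 4269 and 4557 gave 1.77-fold (log2 0.83, SE 0.10, adjusted p = 4.31e-07, edgeR), and with Scg3 it made 2 of 5 granins called where 6.02% of genes passed, 63.8% of them higher in the mixed cells (94.3% on all UMIs, with the median gene at 0.27). Scg3 was 1.23-fold lower (3955 and 4003 CPM, log2 -0.30, SE 0.08, adjusted p = 0.0221), a call lost when either library was left out and with the called doublets removed, and at 0.00 on all UMIs. Chga (31958 and 31562 CPM, log2 -0.03), Scg2 (8237 and 7357 CPM, log2 -0.19) and Vgf (4 and 2 UMIs) did not pass, and on all UMIs Chga and Scg2 had the other sign (0.27 and 0.10). These cells are a mix of hormone combinations, 14 of them with insulin, Sst and Ppy and 3 with insulin, Gcg and Ppy. Scrublet called 5 of the mixed cells doublets. Cela1, which is also high in the Sst groups, was at 246 and 210 CPM in the mixed cells against 4.80 and 9.27 in insulin-only cells. The other 4 acinar genes were at 0 to 4.14 CPM in the mixed cells. Immediate early genes, which dissociation of tissue is known to raise, summed to 5480 and 5955 CPM against 3476 and 3091. Their part in the result was not tested.

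The hormone pairs differed in Chga. The 12 and 8 cells with insulin and Ppy had 55647 and 52942 CPM, above insulin-only cells, above Ppy-only cells and above the 16846 and 23281 CPM of the 14 and 8 cells with insulin and Sst. With the insulin and Ppy cells alone set against insulin-only cells, an alternative chosen after seeing the data, Chga was higher by 0.77 on the log2 scale (SE 0.15, adjusted p = 0.00166, edgeR) and Chgb, at 9198 and 11133 CPM, by 1.19 (SE 0.12, adjusted p = 1.68e-08). Scg2 (log2 -0.10) and Scg3 (log2 -0.06) did not pass, and Vgf had 0 UMIs in these 20 cells. Among all genes, 459 were called in that comparison. Cells with insulin and Sst had Chgb at 7379 and 6934 CPM, between insulin-only and Sst-only cells. Their Scg3, at 3834 and 3864 CPM, was nearer to insulin-only cells.

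**Figure D4:**
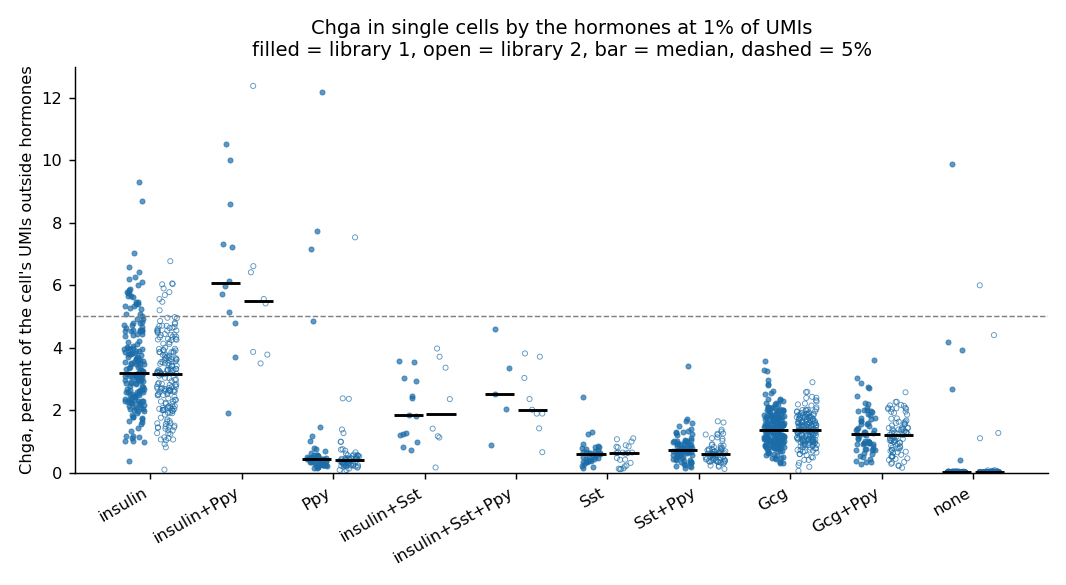
Each point is a cell, with Chga as percent of its UMIs outside the hormones on the vertical axis from 0 and the hormones at 1% of UMIs along the horizontal axis. Filled points are library 1, open points library 2, black bars medians, and the dashed line marks 5%. Most cells with insulin and Ppy, a minority of the insulin cells, and a few cells of the Ppy and no-hormone groups lie above the line, while 0 cells with Gcg or Sst do.

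Single cells with very high Chga crossed the hormone groups. Chga reached 5% of UMIs outside the hormones in 9 of 12 and 5 of 8 cells with insulin and Ppy, in 28 of 182 and 10 of 190 insulin-only cells, in 3 of 54 and 1 of 68 Ppy-only cells, and in 1 of 91 and 1 of 92 cells with no hormone. It did so in 0 cells with Gcg or Sst. The 4 Ppy-only cells had 71524 to 122027 CPM of Chga. They also had Iapp (islet amyloid polypeptide, a beta and delta cell hormone) at 51769 CPM as a sum and insulin at 0.193% to 0.575% of UMIs, while the other 118 Ppy-only cells had Iapp at 1097 CPM. Scg3 was at 4082 CPM in the 4 cells and 1601 CPM in the others, and Scg2 at 7603 and 4676 CPM. Ppy took 9.22% of UMIs in the 4 cells on average and 35.0% in the others. These cells were picked for their Chga, so the values are a description.

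Cells with no hormone at 1% gave the background. Summed over the group, Chga stood at 2642 and 1403 CPM, Chgb at 798 and 611, Scg2 at 184 and 406, and Scg3 at 199 and 187 CPM. Against the mean of the single-hormone groups, 4 of 5 granins were lower, by 2.41 (Chga), 2.48 (Chgb), 3.91 (Scg2) and 3.44 (Scg3) on the log2 scale, in a fit in which 59.9% of genes passed and 41.2% of these were higher in the hormone groups (26.1% on all UMIs) (adjusted p = 5.02e-08, 2.81e-11, 1.86e-10 and 4.18e-14, edgeR). Vgf, with 0 and 14 UMIs, did not pass. Most of these sums came from very few cells: the 3 cells with most Chga held 85.9% and 82.8% of it, and the median cell had 149 and 99.7 CPM.

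In cells led by endothelial markers Chga was at 109 and 84.6 CPM, and in cells led by leukocyte markers at 172 and 112 CPM. Of endothelial-led cells, 85.2% and 78.8% had a Chga UMI, at a median of 0.204% and 0.161% of UMIs from insulin. Such shares in cell types that should lack Chga are read as background. Chgb, Scg2 and Scg3 were at 16.2 to 36.9 CPM in endothelial-led cells. The lowest single-hormone sums, 5213 CPM for Chga, 2113 for Chgb, 1665 for Scg2 and 1649 for Scg3, were far above these values.

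A few cells without hormone had granins at endocrine levels. Of those led by ductal markers, 3 cells with 850, 658 and 352 Chga UMIs and 382, 424 and 414 Chgb UMIs had 2, 1 and 0 UMIs of Scg2. That label needed only 10 UMIs of a list with Krt8 and Krt18. In Ppy-only cells Krt8 was at 327 and 343 CPM and Krt18 at 535 and 511 CPM. The leading genes of these 3 cells held Chga and Chgb but no gene of the ductal list. Whether they are ductal cells was not tested. A further cell led by ductal markers, with 1367 Chga UMIs, had 92 of Scg2. The 2 cells with most Chga UMIs beside it, 1662 and 1393, were not led by any of these marker lists and had 192 and 152 of Scg2. Another 2 cells of library 2, with 177513 and 96154 UMIs, were led by neuronal genes such as Map1b and Stmn2 and carried Nos1 and Vip. They held 13 of the 14 Vgf UMIs of the group, with 360 and 164 UMIs of Chgb and 365 and 170 of Scg2 but only 137 and 66 of Chga. These cells were singled out after their values were seen.

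**Figure D5:**
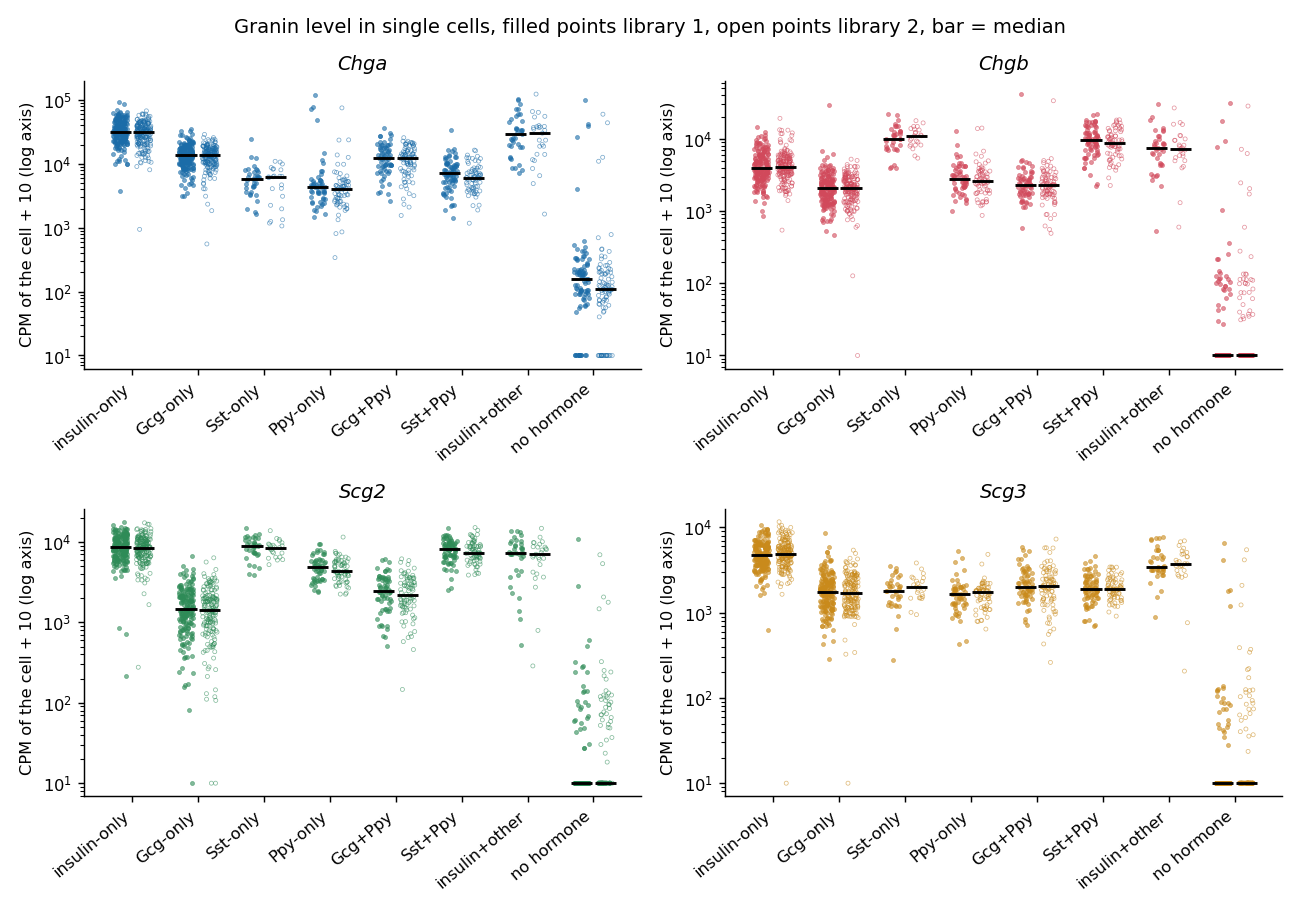
Points are single cells, with CPM + 10 on a log axis and the 8 hormone groups along the horizontal axis, in 1 panel each for Chga, Chgb, Scg2 and Scg3. Filled points are library 1, open points library 2, and black bars the medians. Nearly all hormone-positive cells carry each granin, while the medians of cells with no hormone sit at the floor of the axis for Chgb, Scg2 and Scg3 and at 149 and 99.7 CPM for Chga, with a few cells at endocrine levels.

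Among cells of a group, granins followed the cell's own hormone to different degrees. In insulin-only cells Scg3 had a Spearman correlation with the insulin share of 0.464 in library 1 (n = 182 cells) and 0.456 in library 2 (n = 190). For Chga there it was 0.116 and 0.0226. In Gcg-only cells Scg2 gave 0.367 (n = 182) and 0.491 (n = 174) with the Gcg share, and in Sst-only cells Chgb gave 0.425 (n = 35) and 0.491 (n = 23) with the Sst share. In Ppy-only cells Chga went the other way, with -0.451 (n = 54) and -0.205 (n = 68). The third of Gcg-only cells with least Gcg had Scg2 at 1261 and 1154 CPM, and the third with most at 2228 and 2317. Cells of a library share its preparation, and Scg3 in insulin-only cells also went with depth (-0.354 and -0.254), so these are descriptions without a test.

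Over the 16 sums of 8 groups in 2 libraries, the 4 abundant granins went together to different degrees. On log2(CPM + 10), Pearson's r was 0.915 for Chgb and Scg2, 0.891 for Chga and Scg3, 0.877 for Scg2 and Scg3, 0.756 for Chgb and Scg3, 0.610 for Chga and Scg2 and 0.473 for Chga and Chgb. Vgf had -0.267 to 0.349 with them. The groups with no hormone lie far below the others and weigh on all of these values. Of 4549 genes with a mean of 50 CPM, those most like Scg2 were Chic1 (r = 0.987), Insm1 (0.983), a zinc finger factor of endocrine development, and Prkacb (0.981), a catalytic subunit of protein kinase A. Those most like Scg3 were Golgb1 (0.990), a Golgi matrix protein, Zfhx2 (0.980) and Slc2a5 (0.979). For Chga they were Desi1 (0.945), Gipr (0.944), the receptor of the incretin GIP, and Dennd4c (0.935), and for Chgb Spint1 (0.970), Golim4 (0.965) and Ush1c (0.963). Vgf was below 50 CPM and was not compared.

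The enzymes that cut granins and hormones varied beside them. Of 8 genes tested on a list of prohormone processing, insulin-only cells had 2 higher and 5 lower than Gcg-only cells (median log2 -0.62, all genes -0.02), where 35.6% of all genes were called. Pcsk1, the convertase that opens proinsulin, was at 575 and 568 CPM in insulin-only cells and at 4.19 and 2.48 in Gcg-only cells. Pcsk2, the convertase of proglucagon, went the other way, with 4885 and 4983 CPM in insulin-only and 10326 and 10301 in Gcg-only cells. Its chaperone Scg5 (960 and 919 against 2047 and 1974 CPM) and Cpe, the carboxypeptidase that trims the cut ends (3038 and 3132 against 4140 and 3990 CPM), were also lower in insulin-only cells. In Sst-only against Ppy-only cells 0 were higher and 3 lower (14.4% of all genes called). Insulin-only cells had 2 higher and 1 lower than Sst-only cells (20.9%), and 1 higher and 4 lower than Ppy-only cells (29.8%). Gcg-only cells had 4 higher and 2 lower than Sst-only cells (18.1%), and 3 and 3 against Ppy-only cells (17.2%).

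Granule membrane and cargo genes, 15 of them tested, were mostly higher in insulin-only cells. The list includes Iapp and Ucn3, which are also beta cell markers. It was chosen with earlier results known, so its counts carry no test. In insulin-only cells 11 were higher and 1 lower than in Gcg-only cells, 10 and 1 against Sst-only, and 12 and 1 against Ppy-only cells (35.6%, 20.9% and 29.8% of all genes called), with medians of 1.16, 1.16 and 0.83 on the log2 scale against -0.02, 0 and 0 for all genes. Sytl4 (granuphilin, which docks insulin granules) was at 530 and 545 CPM in insulin-only cells and at 0.708 to 4.11 CPM in the others, and Ucn3 at 548 and 530 against 0 to 19.8 CPM. The zinc transporter Slc30a8 was at 1305 and 1282 CPM in insulin-only and 1270 and 1319 in Gcg-only cells but at 0 to 64.5 CPM in Sst-only and Ppy-only cells. Pyy, the cargo that went against the list, was at 659 and 546 CPM in insulin-only and 53889 and 41295 CPM in Ppy-only cells. Among the other groups 3 to 5 genes of the list were called, where 14.4% to 18.1% of all genes were.

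Of 13 genes of granule formation and transport, 4 were higher and 1 lower in insulin-only than in Gcg-only cells, 4 and 0 against Sst-only, and 0 and 1 against Ppy-only cells. Gcg-only cells had 3 higher and 0 lower than Sst-only cells and 1 higher and 2 lower than Ppy-only cells, and Sst-only cells 0 higher and 4 lower than Ppy-only cells. Of all genes 35.6%, 20.9% and 29.8% were called in the first 3 of these comparisons and 18.1%, 17.2% and 14.4% in the last 3. The 5 of 13 called against Gcg-only cells were thus close to that share, and the 1 of 13 against Ppy-only cells was under it. Cadps, which primes dense-core granules for release, was at 198 to 267 CPM in insulin-only, Gcg-only and Ppy-only cells and at 4.40 and 0 CPM in Sst-only cells, in which Chgb was highest. Hid1, which acts in granule maturation, was at 123 and 178 CPM in Sst-only and 279 and 313 in insulin-only cells.

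Of 9 tested genes on a list of factors known to bear on granin transcription, 3 were higher and 3 lower in insulin-only than in Gcg-only cells (35.6% of all genes called), 2 and 2 against Sst-only (20.9%), and 3 and 3 against Ppy-only cells (29.8%). Gcg-only cells had 3 and 3 against Sst-only (18.1%) and 1 and 1 against Ppy-only cells (17.2%), and Sst-only cells 3 and 3 against Ppy-only cells (14.4%). Insm1 was at 179 and 185 CPM in insulin-only, 196 and 198 in Sst-only, 106 and 80.9 in Ppy-only and 71.6 and 68.0 in Gcg-only cells, the same order as Scg2 apart from the first neighbours. Rest, the repressor of neuronal genes, was at 0.842 to 19.8 CPM in all of them. Egr1, also an immediate early gene, was at 725 and 657 CPM in insulin-only and 3331 and 3390 in Ppy-only cells. Gcg-only cells had 2027 and 1896 CPM of Egr1, and Sst-only cells 1661 and 1214. Neurod1 was at 415 and 428 CPM in insulin-only, 351 and 350 in Gcg-only, and 164 to 209 in Sst-only and Ppy-only cells. Nkx2-2 was at 70.3 and 114 CPM in Sst-only cells and at 158 to 184 in the others. Crem, which binds the cyclic AMP element, was higher in Sst-only than in Ppy-only cells by 0.96 on the log2 scale (SE 0.31, adjusted p = 0.0331, edgeR), and the 2 groups of values did not overlap.

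The immediate early genes moved with the single-hormone groups too. All 8 were called lower in insulin-only than in Gcg-only and in Ppy-only cells, where 35.6% and 29.8% of all genes were called. Against Sst-only cells 7 were called lower (20.9% of all genes called). Their sum was 3476 and 3091 CPM in insulin-only, 7256 and 7466 in Sst-only, 10830 and 10096 in Gcg-only and 16062 and 17596 CPM in Ppy-only cells. The list also moved between Gcg-only and Sst-only cells (5 called higher, 0 lower), Gcg-only and Ppy-only cells (0 and 6) and Sst-only and Ppy-only cells (0 and 7). Of all genes 18.1%, 17.2% and 14.4% were called there, in the same order. Chga and Scg3 were highest where this sum was lowest. Its part in the granin differences was not tested.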

How the data were processed

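Single-cell RNA counts of 2 RevGel-seq libraries from 1 islet preparation were used. The authors deposited 1 table of raw counts per library, whole numbers of deduplicated UMIs per gene and cell barcode, made with their Cytonaut software: barcodes above the knee of UMI-tools, alignment to exons of GRCm38, and assignment to Ensembl genes. The aligner is not given in the sources used here, and intronic reads are not in the counts. Of 33038 gene identifiers 99.8% were found in GENCODE M21. A row present in 1 table was set to 0 in the other.

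The members and all gene lists were chosen with earlier results of these data known. Cells were grouped by hormones at 1% of all UMIs. No cell was removed. UMIs were summed per library and group without the 5 hormone genes, which formed the groups, and compared by the quasi-likelihood test of edgeR 4.0.16 (R 4.3.3), with TMM factors, filterByExpr, and Benjamini-Hochberg adjustment over all genes at 0.05. One fit held 14 sums of 7 groups (12849 genes, 7 residual degrees of freedom). Another added the cells with no hormone (16 sums, 14528 genes, 8 degrees of freedom). The fit of 7 groups was also run on simulated counts, and the outcome is not given here. Depth per cell ran from 4704 to 177513 UMIs. For a share of cells the 95% interval is the exact binomial one (Clopper-Pearson), for a ratio of UMIs the exact conditional one, and each covers counting error only. Doublets were called with Scrublet in scanpy 1.11.5 (16 cells, 1.08%) and kept. Cells with no hormone were assigned to the marker list with most UMIs, if it had at least 10. The text names the 5 members, at most 6 genes per list with the largest called differences between single-hormone groups, and the 3 genes most like each member. Alternatives were thresholds of 0.5% and 2%, other scalings, DESeq2 1.42.0, no filter on low counts, cells thinned to 2000 UMIs, doublets removed, a block for the library, and each library left out. The library number pairs sums made from the same library, but their deviations from the group means correlated weakly over 21 pairs of groups (-0.0511 to 0.0685, 4475 genes), and the tests given have no block.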

Additional observations from a re-analysis of the deposited data

Results flagged for a closer look

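The change in Scg2 that accompanied Ppy differed between Gcg cells and Sst cells. Scg2 was higher in cells with Gcg and Ppy (2738 and 2396 CPM) than in Gcg-only cells (1706 and 1665 CPM), and lower in cells with Sst and Ppy (7891 and 7608 CPM) than in Sst-only cells (9005 and 8176 CPM), in 2 of 2 libraries each. The difference of both changes was 0.75 on the log2 scale (SE 0.13, n = 2 libraries per group, adjusted p = 0.00428 in edgeR's quasi-likelihood test). It was added after the values were seen. The call was lost with cells thinned to 2000 UMIs (log2 0.73), and the adjusted p was 0.121 at a hormone threshold of 0.5%, 0.470 without library 1 and 0.146 without library 2, while it stayed below 0.05 under the other settings tried.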

How the results depend on the processing

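Only 2 libraries of 1 preparation were available, so differences between animals are not covered, and Sst-only sums rest on 35 and 23 cells. Over 599 repeats of the log2 fold changes of the 5 granins under the alternatives, 552 kept their direction and their side of the threshold, 20 lost and 9 gained a call, and 18 changed sign. Causes were not tested except where fewer UMIs, genes or libraries entered by construction. The group with the highest level was kept for 5 of 5 granins under other thresholds, thinning and removal of doublets and without library 1. It was kept for 4 of 5 without library 2 and on all UMIs, where Scg2 was highest in Sst-only cells (on all UMIs 8144 and 7347 per 1000000 against 5415 and 5070 in insulin-only cells).

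Sign changes came mostly from small differences. On all UMIs, Scg2 in insulin-only over Sst-only cells became -0.56, Scg3 in Gcg-only over Sst-only -0.33, Chga in Sst-only over Ppy-only 0.03, Scg3 in Sst and Ppy over Sst-only -0.04, and in cells with insulin and another hormone over insulin-only Chga became 0.27 and Scg2 0.10. Without TMM on UMIs outside the hormones, Scg3 in Gcg-only over Sst-only was -0.06 and Chga in insulin and another hormone 0.01. That scale also moved the share of called genes higher in insulin-only than in Sst-only cells to 37.1%. With DESeq2 Scg3 in Gcg-only over Sst-only was -0.01. Chga in insulin and another hormone was 0.02 with doublets removed, 0.04 at a threshold of 0.5% and 0.77 for insulin and Ppy cells alone (chosen after seeing the data). At 2%, Vgf in the single-hormone groups over no hormone was 0.04, Scg3 in Sst and Ppy over Sst-only -0.01 and Vgf there -0.63, and -0.26 at 0.5%.

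The number of granins called was 3 (no filter) against 1 for Gcg and Ppy over Gcg-only, 1 (no filter) against 0 for Sst and Ppy over Sst-only, and 1 (doublets removed, all UMIs, 0.5%) against 2 for insulin and another hormone over insulin-only. For the difference of the changes with Ppy it was 2 with DESeq2, 3 with no filter, and 0 thinned and at 0.5%, against 1. Calls lost elsewhere were Chgb in Gcg-only over Ppy-only on all UMIs and at 0.5%, and Chga in Sst-only over Ppy-only with DESeq2, thinning and 2%.

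Thinning cells to 2000 UMIs left 1574 genes called for insulin-only over Gcg-only, 655 over Sst-only and 1022 over Ppy-only, 552 for Gcg-only over Sst-only, 482 for Gcg-only over Ppy-only, 325 for Sst-only over Ppy-only, 14 for Gcg and Ppy, 0 for Sst and Ppy, 153 for insulin and another hormone, 3 for the difference of changes and 2947 for no hormone. On all UMIs 5755 were called for insulin-only over Sst-only, 4110 for Sst-only over Ppy-only and 1427 for insulin and another hormone. DESeq2 called 1466 for Gcg-only over Ppy-only. Without a filter 174 were called for Gcg and Ppy, 57 for Sst and Ppy and 63 for the difference of changes. At 2% the last was 9, at 0.5% Sst and Ppy gave 5, and insulin and Ppy cells alone gave 459.

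Leaving out each library in turn, with the spread taken from the other groups, gave 2337 to 2606 genes for insulin-only over Gcg-only, 1502 to 1601 over Sst-only and 1854 to 2465 over Ppy-only, 1217 to 1430 for Gcg-only over Sst-only, 726 to 956 for Gcg-only over Ppy-only, 970 in both cases for Sst-only over Ppy-only, 10 to 14 for Gcg and Ppy, 1 to 2 for Sst and Ppy, 322 to 332 for insulin and another hormone and 6 to 9 for the difference of changes. Granins called were 0 to 1 for Gcg and Ppy, 1 in both cases for insulin and another hormone and 0 in both for the difference of changes. Vgf ranged from -1.78 to 4.66 for the single-hormone groups over no hormone, where the upper value was fitted against 0 UMIs and is no estimate of a fold, and from -3.94 without library 1 to 4.69 without library 2 for Sst-only over Ppy-only.

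With the library as a block, the 55 granin results kept their direction and call. Genes called rose from 3 to 7 for Sst and Ppy over Sst-only, and no other count moved by over 1.5 times.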

Other observations

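Cells with Gcg and Sst together, 12 in library 1 and 17 in library 2 and in no comparison of the report, had levels of Chga, Chgb and Scg2 between those of Gcg-only and Sst-only cells. Chga stood at 11003 and 11234 CPM, Chgb at 5784 and 6189 and Scg2 at 4510 and 4632 CPM. Scg3, at 2029 and 2245 CPM, was above both groups (1823 to 1958 CPM), and Vgf had 2 and 8 UMIs. Of these 29 cells, 15 also had Ppy at 1% (4 in library 1 and 11 in library 2), and 3 were called doublets.

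Within single cells of a group, levels of different granins went together weakly. Chgb and Scg3 had Spearman correlations of 0.398 and 0.424 in insulin-only cells (n = 182 and 190 in libraries 1 and 2) and 0.333 and 0.419 in Gcg-only cells (n = 182 and 174). Chga and Scg2 had 0.267 and 0.364 in Gcg-only cells, but -0.107 and -0.265 in cells with Gcg and Ppy (n = 65 and 86). Cells of a library share its preparation and differ in depth, so these values carry no test. Among insulin-only cells, the 38 with Chga at 5% of UMIs or more outside the hormones had a summed level of Scg3 of 6156 CPM and the other 334 one of 4645 CPM, with median cells at 6075 and 4708 CPM. Pyy was at 2150 against 473 CPM in the sums but at 321 against 181 CPM in the median cell. These cells were picked for their Chga.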
